A study of Mus musculus with 10 samples.

Results

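The IL-6 family was examined in mouse melanomas as 10 genes chosen by symbol: the cytokine genes Il6, Il11, Lif, Osm and Clcf1, the receptor genes Il6st, Il6ra, Lifr and Osmr, and Socs3. All 10 were found once among the 47643 genes of the deposited table, and all 10 passed the filter on low counts that left 14816 genes for testing. RNA was sequenced from 5 melanomas labelled Fes KO and 5 labelled Fes WT. The labels give the Fes KO mice as Fes-/- and the Fes WT mice as Fes+/+, and the alleles that both groups shared included Tyr::CreERT2/+ and BRafV600E/+. CreERT2 is a Cre recombinase that works only when tamoxifen is present, and the Tyr promoter confines it to pigment cells, so the Braf allele was recombined in melanocytes while the Fes genotype is written as that of the whole mouse. Tumours were started with 5 mM 4OH-Tamoxifen applied to back skin. Neither age nor sex is given in the labels. Nor do they state that each tumour is from a different mouse, so the p-values reflect tumour-to-tumour spread, part of which may be technical.

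IL-6 family cytokines share the signalling receptor gp130, the product of Il6st. IL-6 and IL-11 first bind a receptor of their own, which for IL-6 is the product of Il6ra, and then bring gp130 molecules together. LIF pairs gp130 with LIFR, mouse oncostatin M (Osm) pairs it mainly with OSMR, and CLCF1 acts on the receptor CNTFR together with gp130 and LIFR. The receptors activate JAK kinases and the transcription factor STAT3, and Socs3, which STAT3 induces, binds gp130 and JAK kinases and shuts the signal down. In tumours these cytokines can come from macrophages, fibroblasts and cancer cells.

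Total counts ranged from 13226783 to 16599120 per tumour. Fes itself, the knocked-out gene, had 29.2 to 57.5 CPM (read counts scaled to library size with TMM factors) in Fes KO, against 72.4 to 102 CPM in Fes WT, so its reads were fewer but not absent in the knockout tumours. Xist, the RNA of the inactive X chromosome, was above 100 CPM in Fes KO 1, Fes KO 2 and Fes WT 5 and in no other tumour. Some tumours stood apart in tissue content. Summed keratinocyte markers were at 5144 CPM in Fes KO 2, against 11.4 to 207 CPM elsewhere, and summed skeletal muscle markers were at 1771 CPM in Fes KO 2 and highest in Fes WT 3, at 14464 CPM. The melanocyte regulator Sox10 was present in all tumours, with 743 ± 218 CPM in Fes KO, against 637 ± 159 CPM in Fes WT (SD, n = 5 each). The pigment gene Dct had 1.89 to 325 CPM in Fes KO and 6.78 to 21.4 CPM in Fes WT. Of the 7 melanocyte markers 6 lay above 0 in log2 fold change, where 47.6% of all tested genes lay below 0. None passed over all genes in edgeR, where 3 had an unadjusted p below 0.05, as did 9.62% of all tested genes. DESeq2, which called 1.82% of all genes, called the pigment gene Tyr. These are whole-tumour samples, in which fewer cells of a type and less RNA per cell cannot be told apart.

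Promoter sequences are shown for Il6, Osmr and Socs3, because Il6 and Osmr had the lowest p-values of the family and Socs3 is its STAT3-induced member. Each window runs from 250 bases before to 50 after the gene's start in RefSeq, GRCm38.p6, and 8 of the 10 genes had a window. Capitals mark matches on either strand to TTCNNNGAA (STAT), TGANTCA (AP-1), the sequence GGGA, any base, TTTCC (kappaB) or TTNNGCAA (C/EBP), and no marked match overlaps another. The Il6 window, on the plus strand at chr5:30012864-30013163, held an AP-1 match, a C/EBP match and a kappaB match that began 249, 128 and 44 bases before the start. The Osmr window, on the minus strand at chr15:6874264-6874563, held 1 match, to AP-1. The Socs3 window, on the minus strand at chr11:117969317-117969616, held the STAT match TTCTTAGAA, which began 154 bases before the start.
Il6: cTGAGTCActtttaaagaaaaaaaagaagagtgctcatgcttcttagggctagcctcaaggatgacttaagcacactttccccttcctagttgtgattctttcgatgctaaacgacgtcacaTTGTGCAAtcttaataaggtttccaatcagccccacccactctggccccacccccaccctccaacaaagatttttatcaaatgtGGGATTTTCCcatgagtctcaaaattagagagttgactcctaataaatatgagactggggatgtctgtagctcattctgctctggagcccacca
Osmr: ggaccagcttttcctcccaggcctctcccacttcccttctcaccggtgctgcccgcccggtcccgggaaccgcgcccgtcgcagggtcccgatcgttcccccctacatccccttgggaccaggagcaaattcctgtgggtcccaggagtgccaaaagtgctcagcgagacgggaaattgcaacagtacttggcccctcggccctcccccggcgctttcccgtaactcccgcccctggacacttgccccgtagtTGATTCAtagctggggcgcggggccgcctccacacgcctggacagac
Socs3: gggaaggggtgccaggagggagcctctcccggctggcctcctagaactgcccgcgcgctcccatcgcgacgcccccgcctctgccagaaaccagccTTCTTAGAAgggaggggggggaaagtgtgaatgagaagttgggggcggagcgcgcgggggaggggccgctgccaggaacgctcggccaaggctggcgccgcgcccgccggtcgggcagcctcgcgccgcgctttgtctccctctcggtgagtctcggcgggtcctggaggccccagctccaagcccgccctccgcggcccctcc
Over all 32851 promoter windows of this length, 8.3% held a STAT match, 7.81% an AP-1 match, 0.411% a kappaB match and 10.8% a C/EBP match. Of the family's windows, that of Socs3 was the only one with a STAT match and that of Il6 the only one with a kappaB match. Lif and 1 of the 2 Il11 windows held an AP-1 match, and the Il6st, Il6ra and Lifr windows held none of the 4. A match is a string of letters and was not tested as a binding site.

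Levels of the 10 genes covered a wide range per kilobase of annotated exon, the scale on which genes can be compared. The shared receptor Il6st was highest, at 67.5 ± 17.9 CPM per kb in Fes KO and 80.3 ± 14.5 CPM per kb in Fes WT, and was above Socs3 in 10 of 10 tumours. Socs3 followed at 21.6 ± 12.4 CPM per kb in Fes KO and 42.7 ± 25.3 CPM per kb in Fes WT, above Lifr in 9 of 10 tumours. Lifr averaged 11.4 ± 2.47 CPM per kb over all 10 tumours, above Osmr in 8 of 10. Osmr was at 5.38 ± 2.23 CPM per kb in Fes KO and 10.4 ± 3.45 CPM per kb in Fes WT, and above Lif in 8 of 10 tumours. Among the cytokines Lif was highest, at 3.92 ± 2.63 CPM per kb in Fes KO and 4.53 ± 2.88 CPM per kb in Fes WT, and Clcf1 averaged 2.49 ± 0.59 CPM per kb over all 10. Il6ra, the receptor that IL-6 binds first, was at 2.66 ± 0.85 CPM per kb in Fes KO and 2.99 ± 0.33 CPM per kb in Fes WT, close to Clcf1, which it exceeded in 6 of 10 tumours. Il6, Osm and Il11 were lowest, with means over all 10 tumours of 0.728, 0.656 and 0.547 CPM per kb. The order of those 3 was not fixed, since Il6 lay above Osm in only 3 of 10 tumours and Osm above Il11 in 4 of 10.

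The study's comparison, Fes KO against Fes WT, asks what loss of this cytoplasmic tyrosine kinase does to the tumours. None of the 10 family members changed in the edgeR quasi-likelihood test at an adjusted p below 0.05 over all genes, where 0.175% of the 14816 tested genes did. Unadjusted, 2 of the 10 had a p below 0.05, Il6 and Osmr, both lower in Fes KO, against 9.62% of all tested genes in either direction and 5.39% in the lower direction. Without the 3 Xist-expressing tumours Il6 was at -1.59 and Osmr at -0.78, and neither had an unadjusted p below 0.05. DESeq2, limma-voom with quality weights and limma on the deposited log2 values also called 0 of the 10, where they called 1.82%, 0.776% and 0.169% of all genes. All 10 members had a log2 fold change below 0, as did 47.6% of tested genes, and the members' median was -0.27 against 0.01 over all tested genes. In 0 of the 10 did the tumours of the 2 genotypes separate without overlap, which 1.9% of tested genes did in either direction and 1.11% with Fes KO lower. The plot of levels in each tumour shows that spread, and the plot of fold changes gives the intervals.

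**Figure D1:**
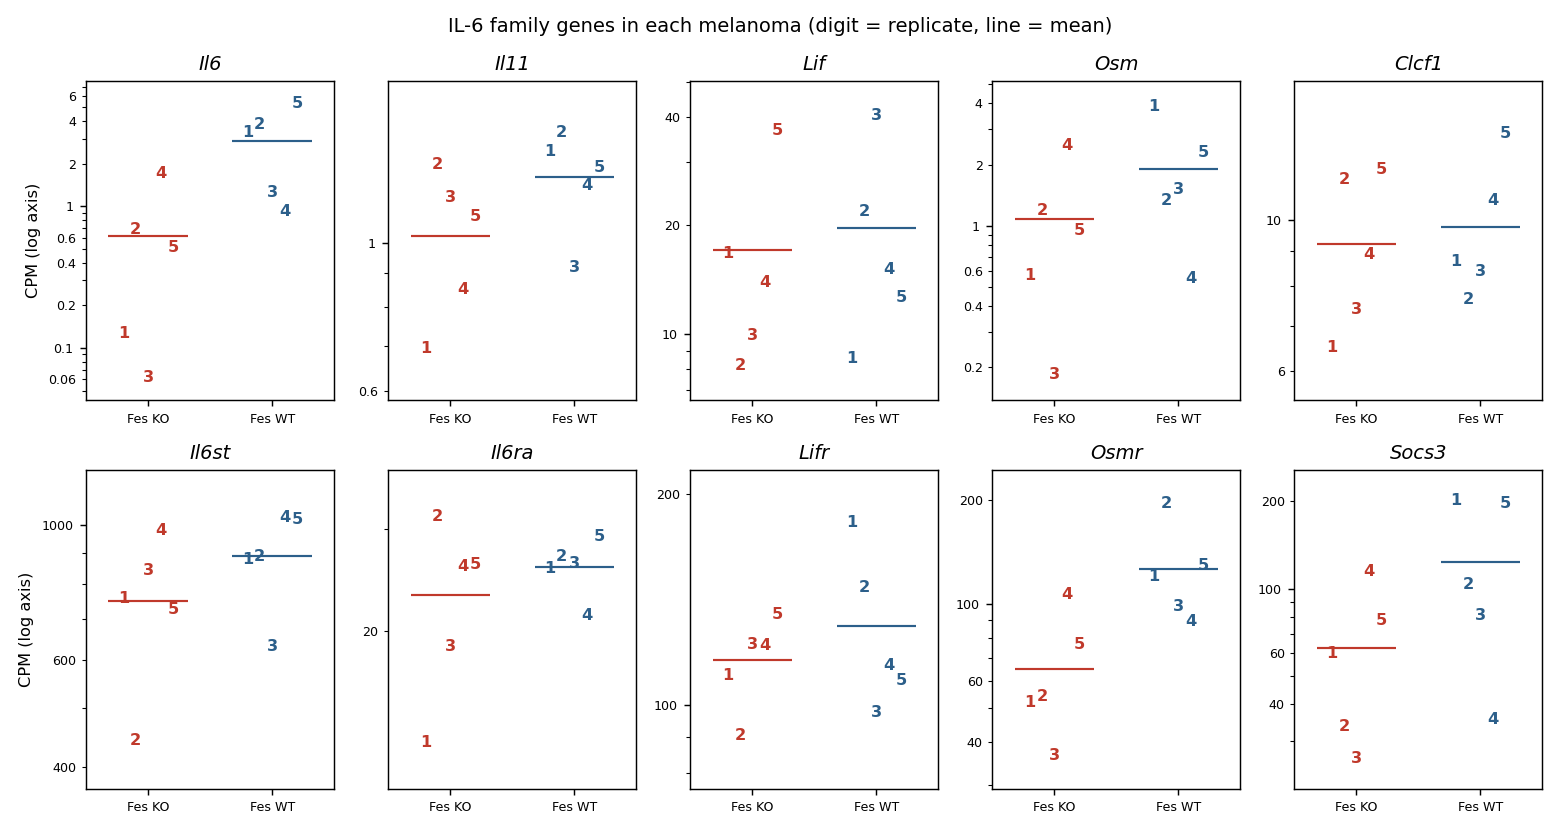
Level of each IL-6 family gene in CPM (log axis, with its own range per gene) in Fes KO (red, left) and Fes WT (blue, right) tumours. Each digit is 1 tumour, named by its replicate number, and the line is the group mean. The groups overlap in every panel, most narrowly for Il6 and Osmr, where Fes KO 4 is the Fes KO tumour that reaches into the Fes WT range.

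**Figure D2:**
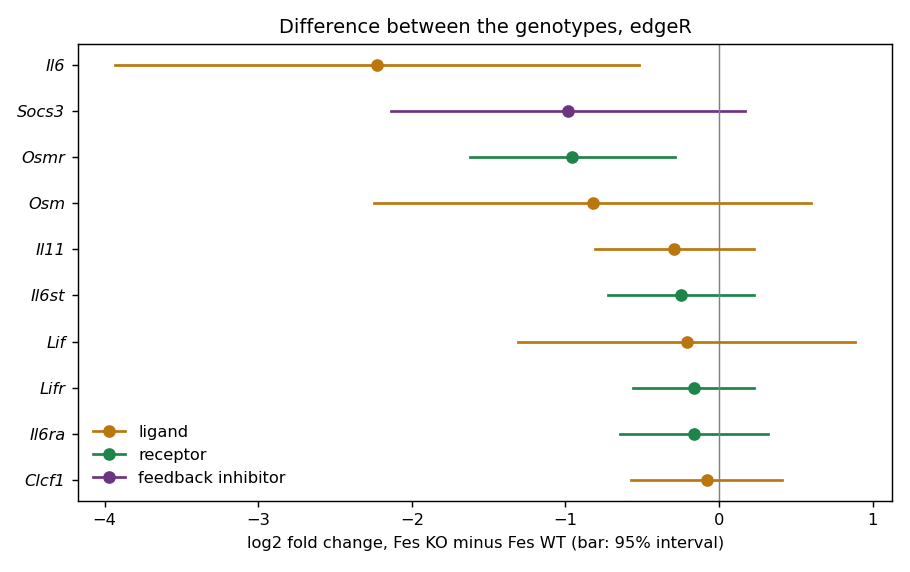
Log2 fold change, Fes KO minus Fes WT, of the 10 genes from edgeR (point) with its 95% interval (bar), coloured by role. All points lie below 0, and the intervals of Il6 and Osmr are the ones that do not reach 0 before adjustment over all genes.

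Among the ligands, Il6, which encodes the inflammatory cytokine IL-6 (ENSMUSG00000025746, chromosome 5, 30013114 to 30019981, plus strand, GRCm38), had the lowest fold change of the family. It was at 0.126, 0.686, 0.0616, 1.70 and 0.510 CPM in Fes KO tumours 1 to 5, and at 3.33, 3.76, 1.25, 0.915 and 5.34 CPM in Fes WT tumours 1 to 5. Fes KO 4 lay above Fes WT 3 and Fes WT 4, and the other 4 Fes KO tumours lay below every Fes WT tumour. The log2 fold change was -2.23 (SE 0.77, 95% interval -3.93 to -0.52), with an adjusted p of 0.399 in edgeR. Exact permutation of the tumours' CPM gave a 2-sided p of 0.0397, where the smallest this design allows is 0.00794, unadjusted for the 10 genes compared in this way. These levels rest on few reads. Fes KO 3 had 1 Il6 read and Fes KO 1 had 2, with exact Poisson 95% intervals of 0.00156 to 0.343 and 0.0153 to 0.456 CPM that cover counting error only, against 15 to 70 reads in Fes WT.

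Osm (ENSMUSG00000058755, chromosome 11, 4236420 to 4241026, plus strand) encodes oncostatin M, a cytokine made mainly by myeloid and T cells. Its level spread widely within each genotype. It was at 0.567, 1.18, 0.185, 2.48 and 0.947 CPM in Fes KO tumours 1 to 5, and at 3.85, 1.34, 1.51, 0.549 and 2.29 CPM in Fes WT tumours 1 to 5. Fes KO 4 was above 4 of the 5 Fes WT tumours, and Fes WT 4 was below 4 of the 5 Fes KO tumours. The log2 fold change was -0.82 (SE 0.64, 95% interval -2.24 to 0.60) with an adjusted p of 0.708 in edgeR. It was -0.55 without Fes KO 3, -1.39 without Fes KO 4 and -0.39 without Fes WT 1. The tumours that were high or low in Osm were largely those that were high or low in Il6. Fes KO 4 was the highest and Fes KO 3 the lowest Fes KO tumour for both cytokines, and Fes WT 4 was the lowest Fes WT tumour for both.

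Lif (ENSMUSG00000034394, chromosome 11, 4257557 to 4272514, plus strand), which encodes leukaemia inhibitory factor, followed another order of tumours although it lies next to Osm. The 2 genes are 16.5 kb apart on chromosome 11. Lif was at 16.7, 8.17, 9.92, 13.9 and 36.6 CPM in Fes KO tumours 1 to 5, and at 8.56, 21.8, 40.4, 15.1 and 12.7 CPM in Fes WT tumours 1 to 5. Each genotype held 1 tumour well above its others, Fes KO 5 and Fes WT 3. The log2 fold change was -0.21 (SE 0.49, adjusted p = 0.921 in edgeR, 95% interval -1.31 to 0.89). Without Fes WT 3, the muscle-rich tumour, it was 0.23, so that the sign of the Lif difference rests on that tumour. Il11 (ENSMUSG00000004371, chromosome 7, 4772373 to 4782859, minus strand), a gp130 cytokine that acts on stromal cells, was at 0.694 to 1.31 CPM in Fes KO and 0.919 to 1.46 CPM in Fes WT, with a log2 fold change of -0.29 (95% interval -0.81 to 0.23). Clcf1 (ENSMUSG00000040663, chromosome 19, 4214238 to 4223490, plus strand), a ligand of the CNTFR receptor complex, was at 6.49 to 11.9 CPM in Fes KO and 7.64 to 13.4 CPM in Fes WT, with a log2 fold change of -0.08 (95% interval -0.57 to 0.41) that was above 0 without Fes KO 1 (0.022) and without Fes WT 5 (0.060). In edgeR Il11 and Clcf1 had adjusted p values of 0.717 and 0.929.

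Among the receptors, Osmr, the oncostatin M receptor (ENSMUSG00000022146, chromosome 15, 6813577 to 6874969, minus strand, GRCm38), had the lowest unadjusted p of the family. It was at 52.1, 54.1, 36.6, 106 and 76.7 CPM in Fes KO tumours 1 to 5, and at 120, 195, 98.4, 89.3 and 129 CPM in Fes WT tumours 1 to 5. As for Il6, 4 Fes KO tumours lay below every Fes WT tumour and Fes KO 4 lay above Fes WT 3 and Fes WT 4. The means were 65.1 ± 27.1 CPM in Fes KO, against 126 ± 41.7 CPM in Fes WT (SD, n = 5 each). The log2 fold change was -0.96 (SE 0.30, 95% interval -1.62 to -0.29) with an adjusted p of 0.345 in edgeR. Exact permutation gave an unadjusted 2-sided p of 0.0238. Unlike Il6, Osmr was well counted, with 594 to 1625 reads in Fes KO and 1463 to 3070 in Fes WT.

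Il6st, Il6ra and Lifr showed smaller differences, with intervals that reach 0. Il6st (ENSMUSG00000021756, chromosome 13, 112464070 to 112510086, plus strand) was at 756, 442, 842, 980 and 726 CPM in Fes KO tumours 1 to 5 and at 878, 890, 632, 1029 and 1024 CPM in Fes WT tumours 1 to 5. The lowest tumour of each genotype was the one richest in keratinocyte or muscle markers, Fes KO 2 and Fes WT 3. With keratinocyte and muscle marker levels as covariates the log2 fold change of Il6st was -0.32 (adjusted p = 0.343 in edgeR). Without these 2 tumours it was -0.22 (adjusted p = 0.578 in edgeR). The effect of that content itself on Il6st was not tested. In all 10 tumours without covariates the log2 fold change of Il6st was -0.25 (SE 0.21, adjusted p = 0.735 in edgeR). Its 95% interval of -0.72 to 0.22 leaves room for differences of up to 0.605-fold and 1.17-fold. Il6ra (ENSMUSG00000027947, chromosome 3, 89864059 to 89913196, minus strand) was at 12.8 to 31.6 CPM in Fes KO and 21.2 to 29.1 CPM in Fes WT, with both its lowest and its highest tumour in Fes KO and a log2 fold change of -0.16 (95% interval -0.65 to 0.32). Lifr (ENSMUSG00000054263, chromosome 15, 7090614 to 7197489, plus strand) was at 90.4 to 135 CPM in Fes KO and 97.6 to 182 CPM in Fes WT, with a log2 fold change of -0.17 (95% interval -0.56 to 0.23). In edgeR Il6ra and Lifr had adjusted p values of 0.839 and 0.796.

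The balance of receptors was described per kilobase of exon. Il6st made up 77.6 ± 4.73% of the summed level of the 4 receptors in Fes KO and 75.7 ± 4.69% in Fes WT, so gp130 transcripts outnumbered its partners in every tumour. Osmr made up 6.29 ± 2.04% in Fes KO (3.27 to 7.93%) and 9.91 ± 2.83% in Fes WT (6.52 to 14.3%). Lifr made up 12.7 ± 1.91% in Fes KO and 11.5 ± 2.70% in Fes WT. The ratio of Osmr to Lifr was 0.422, 0.532, 0.267, 0.778 and 0.507 in Fes KO tumours 1 to 5, and 0.588, 1.18, 0.897, 0.697 and 1.06 in Fes WT tumours 1 to 5. Osmr exceeded Lifr in Fes WT 2 and Fes WT 5 and in no Fes KO tumour, and the ranges of the ratio overlapped.

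Osmr and Lifr are neighbours on chromosome 15, 216 kb apart, and C7, a terminal complement gene that changed in these data, lies 1.82 Mb from Osmr, between lowest coordinates. The genes around them were therefore listed. Within 3 Mb of the lowest coordinate of either gene 29 genes were tested, placed by their own lowest coordinates. C7 was the only 1 that changed in edgeR, at a log2 fold change of -5.57 (SE 0.72) and an adjusted p of 0.0168. Unadjusted, 5 had a p below 0.05, all lower in Fes KO, which is 17.2% of the window. Of all tested genes 9.62% did in either direction and 5.39% in the lower direction. C7 and Osmr, for which the window was chosen, are 2 of the 5, and without them it was 3 of 27 genes, or 11.1%. They were Osmr, C7, its fellow complement gene C6 at -3.22 (SE 0.81), the endocytic adaptor Dab2 at -0.75 (SE 0.30) and Ugt3a2 at -1.84 (SE 0.54), the last 3 named after their values were seen. The nearest tested neighbours of Osmr and Lifr on the outer sides lay within 1 SE of 0. Rictor, a subunit of the mTORC2 kinase complex, had -0.06 (SE 0.10), and Egflam, which encodes the matrix protein pikachurin, had 0.10 (SE 0.22). The window's median log2 fold change was -0.04, against 0.01 over all tested genes.

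**Figure D3:**
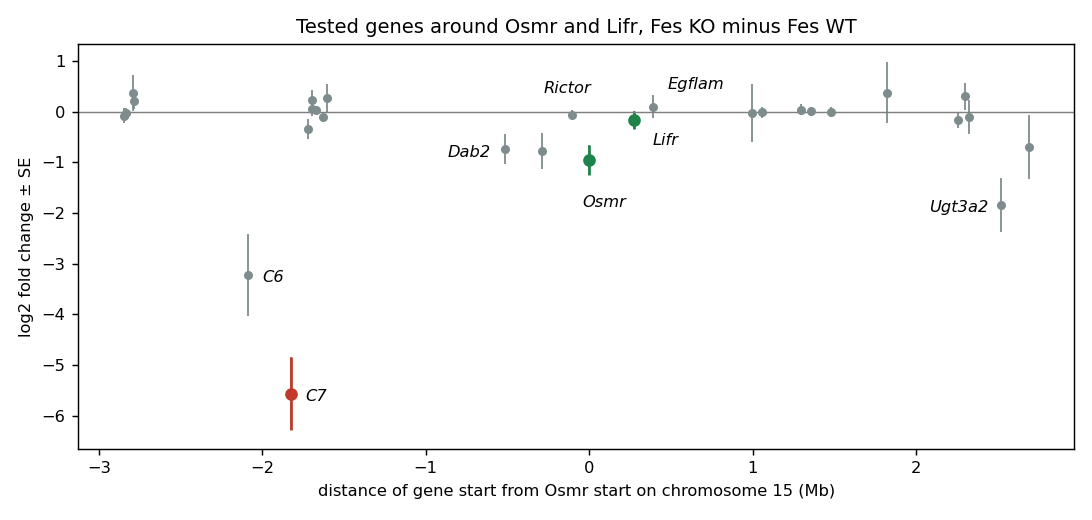
Log2 fold change, Fes KO minus Fes WT, with SE, of the 29 tested genes within 3 Mb of Osmr or Lifr, by distance from Osmr in Mb. Distances are between lowest coordinates, which the axis calls starts on either strand. Green marks Osmr and Lifr and red marks C7, the changed gene at -5.57. Most of the other genes lie near 0, Rictor and Egflam beside the receptor genes among them.

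Socs3, the feedback inhibitor (ENSMUSG00000053113, chromosome 11, 117966079 to 117970047, minus strand, GRCm38), was at 59.8, 33.4, 26.1, 115 and 78.0 CPM in Fes KO tumours 1 to 5. In Fes WT tumours 1 to 5 it was at 202, 103, 80.7, 35.5 and 197 CPM. Fes WT 1 and Fes WT 5 lay above every Fes KO tumour, Fes KO 2 and Fes KO 3 lay below every Fes WT tumour, and the other 6 tumours overlapped. The means were 62.4 ± 35.9 CPM in Fes KO, against 124 ± 73.2 CPM in Fes WT (SD, n = 5 each). The log2 fold change was -0.99 (SE 0.52, 95% interval -2.14 to 0.17) with an adjusted p of 0.579 in edgeR, and exact permutation gave an unadjusted 2-sided p of 0.143. Without the 3 Xist-expressing tumours the log2 fold change of Socs3 was -0.52, and without Fes KO 4 it was -1.32.

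Whether the level of Socs3 moved with the rest of the family across the 10 tumours was asked for each of the other 9 members on log2 CPM. Socs3 was high where Osm, Il6 and Osmr were high. Pearson's r was 0.87 with Osm (permutation p = 0.00117, adjusted p = 0.0105 over the 9 relations), and Spearman's rho was 0.90 (permutation p = 8.0e-04). With Il6, r was 0.80 (permutation p = 0.00664, adjusted p = 0.0299) and rho was 0.84 (permutation p = 0.00392). With Osmr, r was 0.77 (permutation p = 0.0106, adjusted p = 0.0318) and rho was 0.85 (permutation p = 0.00307). The same tumours stood at the ends, since Fes KO 3 was the lowest of all 10 tumours for Socs3, Il6, Osm and Osmr, and Fes KO 4 was the highest Fes KO tumour and Fes WT 4 the lowest Fes WT tumour for each of the 4.

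The other 6 relations did not pass, with adjusted p values of 0.331 to 0.768 for r. Socs3 and Lif had an r of 0.10 (permutation p = 0.768) and a rho of 0.07 (permutation p = 0.863). Socs3 and Clcf1 had an r of 0.17 (permutation p = 0.632) and a rho of 0.22, and Socs3 and Il11 had an r of 0.11 (permutation p = 0.761) and a rho of 0.21. For the receptors Il6st, Il6ra and Lifr, r was 0.41, 0.36 and 0.49 and rho was 0.38, 0.26 and 0.33, with permutation p values of 0.245, 0.321 and 0.147 for r. Without the 2 tumours farthest from the member's median, r with Socs3 was 0.74 for Osm, 0.80 for Il6 and 0.77 for Osmr (exact permutation p = 0.0330, 0.0210 and 0.0257). For Lifr it was 0.00 without Fes KO 2 and Fes WT 1, so that its r of 0.49 rests on those tumours. With values centred on the mean of each genotype, r was 0.84 for Osm (permutation p = 0.00296, adjusted p = 0.0266), 0.75 for Il6 (permutation p = 0.0150, adjusted p = 0.0677) and 0.70 for Osmr (permutation p = 0.0274, adjusted p = 0.0821), so the last 2 no longer passed. Each genotype has 5 tumours, too few for an r of its own.

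Several of these calls were lost with 1 tumour left out. With 1 tumour left out, r stayed between 0.82 and 0.95 for Osm, 0.72 and 0.86 for Il6, and 0.66 and 0.84 for Osmr. The adjusted p passed in 9 of 10 such fits for Osm, where it was 0.0727 without Fes KO 3 (exact permutation). For Il6 it passed in 6 of 10 and was lost without Fes KO 3, Fes KO 4, Fes WT 3 and Fes WT 5, at 0.137, 0.0535, 0.0539 and 0.0720 (exact permutation). For Osmr it passed in 4 of 10 and was lost without Fes KO 2, Fes KO 3, Fes KO 4, Fes KO 5, Fes WT 3 and Fes WT 5, with adjusted p values of 0.0502 to 0.149 (exact permutation). Not every loss came with a lower r. For Osmr r was 0.77 without Fes KO 5 or Fes WT 3, as in all 10 tumours. For Il6 r was 0.80 without Fes KO 4 or Fes WT 3, as in all 10 tumours.

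**Figure D4:**
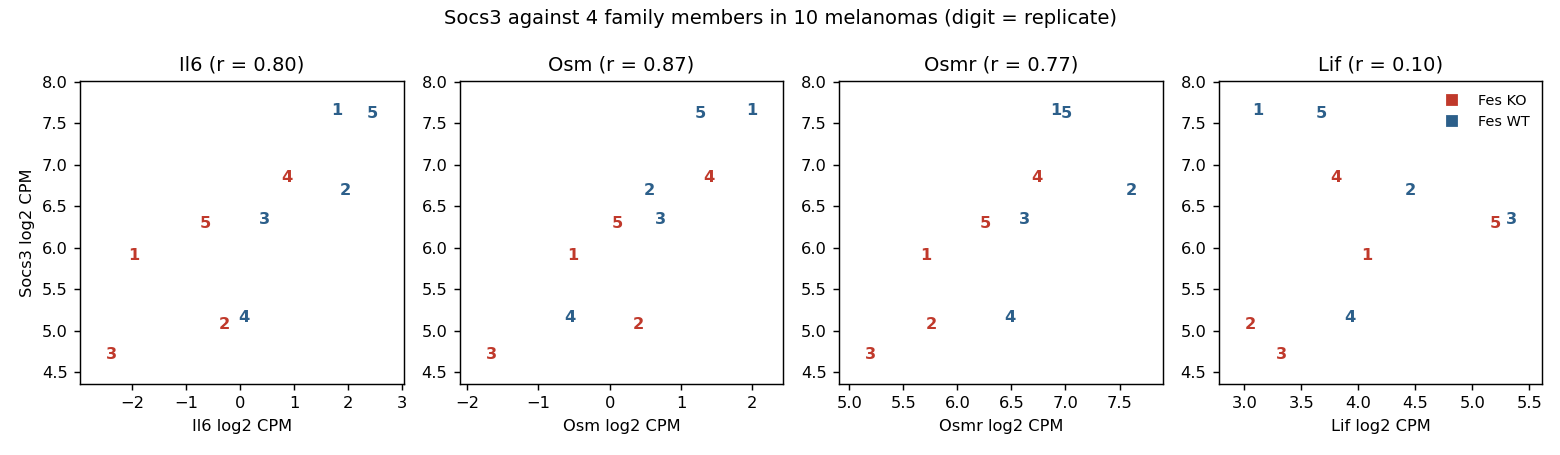
Socs3 against Il6, Osm, Osmr and Lif in log2 CPM, with 1 digit per tumour (its replicate number) and red for Fes KO, blue for Fes WT. Socs3 follows Il6, Osm and Osmr from Fes KO 3 at the bottom left to Fes WT 1 and Fes WT 5 at the top, with r of 0.80, 0.87 and 0.77, and shows no such order with Lif, with an r of 0.10.

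Macrophage markers ran in a partly similar order of tumours. All 10 macrophage markers had log2 fold changes below 0, as did 47.6% of all tested genes. The median of the 10 was -0.78, against 0.01 over all tested genes. None of the 10 changed in edgeR, DESeq2 or either limma test. In edgeR 5 had an unadjusted p below 0.05, all lower in Fes KO, as did 5.39% of all tested genes, and none was at 0 counts in all tumours. Their summed level was 954, 2027, 918, 2137 and 906 CPM in Fes KO tumours 1 to 5, and 3417, 1913, 2508, 1450 and 2526 CPM in Fes WT tumours 1 to 5. Fes KO 4 was thus the highest Fes KO tumour and Fes WT 4 the lowest Fes WT tumour for macrophage markers as for Il6, Osm, Osmr and Socs3. Fes KO 2, the keratinocyte-rich tumour, was high in macrophage markers but low in Socs3. Of the 8 tested T and NK cell markers all lay below 0, with a median of -1.30 and summed levels of 2.96 to 15.7 CPM in Fes KO and 10.4 to 33.8 CPM in Fes WT. None of the 8 changed in edgeR, where 3 had an unadjusted p below 0.05, all lower in Fes KO, as did 5.39% of all tested genes. DESeq2, which called 1.82% of all genes, called the granzyme gene Gzmb at a log2 fold change of -2.92, and the limma tests called none. Of the 6 tested neutrophil markers 4 lay below 0, with a median of -1.13 and summed levels of 43.0 to 190 CPM in Fes KO and 36.0 to 228 CPM in Fes WT. Fibroblast markers, with 6 of 9 below 0 and a median of -0.34, summed to 35176 to 59833 CPM in Fes KO and 31707 to 53879 CPM in Fes WT. The part of these cell types in the levels of the family was not tested.

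The genes with the most similar course over the 10 tumours were found for 4 members, by the mean absolute difference of log2 CPM centred on each gene's mean. Closest to Socs3 were Bcl3, an IkB family gene that STAT3 also induces, at 0.26, the calcium channel gene Trpm2 at 0.28 and the transcription factor gene Stat4 at 0.37, where Socs3 itself deviated from its mean by 0.81 on average. Closest to Il6 were the formyl peptide receptor gene Fpr2 at 0.41, the phospholipase gene Pla1a at 0.44 and the interleukin 18 receptor subunit gene Il18rap at 0.45, against a mean deviation of Il6 of 1.27. Closest to Osmr were Ms4a4d at 0.17, the apoptosis inhibitor gene Birc3 at 0.19 and Phyhd1 at 0.21, against 0.56 for Osmr. Closest to Lif were the intermediate filament gene Synm at 0.23, Palm3 at 0.31 and the transcription factor gene Myc at 0.36, against 0.62 for Lif. Between the genotypes these 12 genes had adjusted p values of 0.313 to 0.901 in edgeR.

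The rest of the pathway was read from lists. None of the 75 tested genes of these lists changed in edgeR, where 0.175% of all tested genes did. Unadjusted, 13 of the 75 had a p below 0.05, against 9.62% of all tested genes, and 47.6% of all tested genes lay below 0. DESeq2 called Cntfr, Bcl6 and Mcl1, limma-voom called Bcl6, and limma on the deposited log2 values called none, where these tests called 1.82%, 0.776% and 0.169% of all genes. Of the other IL-6 family ligands, Ebi3, a subunit of IL-27, was at 1.36 ± 0.68 CPM in Fes KO, against 1.42 ± 0.59 CPM in Fes WT. Of the other receptors 3 of 5 were tested. Cntfr, the receptor for CLCF1, was higher in every Fes KO tumour, at 10.6 to 39.8 CPM, than in any Fes WT tumour, at 5.68 to 9.61 CPM, a separation that 1.9% of all tested genes showed. Its log2 fold change was 1.53 (SE 0.34) with an adjusted p of 0.180 in edgeR. Il11ra1, the receptor for IL-11, had -0.35 (SE 0.28), and its count is uncertain because mouse Il11ra genes are near-identical copies and Il11ra2 had 0 counts in all tumours. Il27ra had -0.27 (SE 0.20).

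Of the 12 JAK-STAT signal transducers 9 lay below 0 and 3 above, the median log2 fold change being -0.16. Stat3, the family's main transcription factor, was at 295 ± 56.3 CPM in Fes KO, against 346 ± 40.1 CPM in Fes WT. The kinase gene Jak1 was at 244 ± 30.3 CPM in Fes KO, against 278 ± 13.0 CPM in Fes WT. The phosphatase gene Ptpn11 was at 216 ± 17.6 CPM in Fes KO, against 209 ± 25.1 CPM in Fes WT. Of the 12 feedback and turnover regulators 8 lay below 0 and 4 above, with a median of -0.04 that ran from -0.12 without Fes KO 2 to 0.0088 without Fes WT 4. Socs5 had 0.47 (SE 0.24), the phosphatase gene Ptpn1 -0.19 (SE 0.16) and the STAT3 inhibitor gene Pias3 0.19 (SE 0.11). The proteases that can shed the IL-6 receptor differed by less than their spread, with Adam17 at 220 ± 40.5 CPM in Fes KO, against 213 ± 38.4 CPM in Fes WT, and Adam10 at 198 ± 21.1 CPM in Fes KO, against 177 ± 29.0 CPM in Fes WT.

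STAT3 target genes lay mostly below 0, though none passed the edgeR test over all genes. Of the 22 tested, 18 lay below 0, as did 47.6% of all tested genes, and the median log2 fold change was -0.77, against 0.01 over all tested genes. That median was -0.40 without the 3 Xist-expressing tumours. With 1 tumour left out it ran from -0.95 without Fes WT 4 to -0.59 without Fes WT 5. Of the 22, 7 had an unadjusted p below 0.05, all lower in Fes KO, as did 5.39% of all tested genes. The highest expressed were the cyclin gene Ccnd1, at 990 ± 315 CPM in Fes KO, against 1089 ± 631 CPM in Fes WT, Fgl2, at 766 ± 465 CPM in Fes KO, against 455 ± 341 CPM in Fes WT, and the acute phase gene Serpina3n, at 46.1 to 419 CPM in Fes KO and 155 to 3834 CPM in Fes WT. Named after their values were seen, the other 6 with an unadjusted p below 0.05 were Bcl6, Mcl1, Cebpb, Cebpd, Icam1 and Saa3. The transcriptional repressor gene Bcl6 was at 44.2 to 55.1 CPM in Fes KO and 62.0 to 111 CPM in Fes WT, without overlap, as were 1.11% of all tested genes with Fes KO lower. Its log2 fold change was -0.66 (SE 0.15) with an adjusted p of 0.193 in edgeR. The survival gene Mcl1 had -0.40 (SE 0.12), the transcription factor genes Cebpb and Cebpd -1.25 (SE 0.44) and -1.20 (SE 0.45), and the adhesion gene Icam1 -0.73 (SE 0.27). The acute phase gene Saa3 had the lowest value of the list, -6.32 (SE 1.97), and ran at 0.123 to 10.1 CPM in Fes KO, against 1.97 to 937 CPM in Fes WT.

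Of the 10 tested cytokines and regulators of the same inflammatory induction, 8 lay below 0, as did 47.6% of all tested genes. In edgeR 3 had an unadjusted p below 0.05 and were lower in Fes KO, and 1 was higher, against 9.62% of all tested genes in either direction. The median log2 fold change of the 10 was -0.57, against 0.01 over all tested genes. Without the 3 Xist-expressing tumours that median was -0.15. With 1 tumour left out it ran from -0.75 without Fes WT 4 to -0.38 without Fes WT 5. The NF-kB inhibitor gene Nfkbia was at 106 ± 48.5 CPM in Fes KO, against 120 ± 48.6 CPM in Fes WT, and Nfkbiz at 40.2 ± 10.1 CPM in Fes KO, against 64.2 ± 21.2 CPM in Fes WT. The chemokine gene Ccl2 lay above 0, at 63.9 ± 45.8 CPM in Fes KO, against 31.9 ± 7.83 CPM in Fes WT, with a log2 fold change of 1.00 (SE 0.45) and an adjusted p of 0.516 in edgeR. Ccl2 was the 1 higher gene with an unadjusted p below 0.05. The 3 lower ones were Nfkbiz at -0.68 (SE 0.25) and, named after their values were seen, Cxcl5 at -3.76 (SE 1.49) and Zc3h12a at -0.75 (SE 0.31). Immediate early genes, which respond fast to many stimuli, had 11 of 12 below 0. Of the 12, 1 had an unadjusted p below 0.05 in edgeR, lower in Fes KO, as did 5.39% of all tested genes. The median of the 12 was -0.46, with Nr4a1 at -0.23 (SE 0.58), Egr1 at -0.50 (SE 0.80) and Klf6 at -0.35 (SE 0.20). That median was -0.91 without Fes KO 5 and -0.13 without Fes WT 1. The macrophage and T cell markers given above lay below 0 as well, and their part in the values of these lists was not tested.

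**Figure D5:**
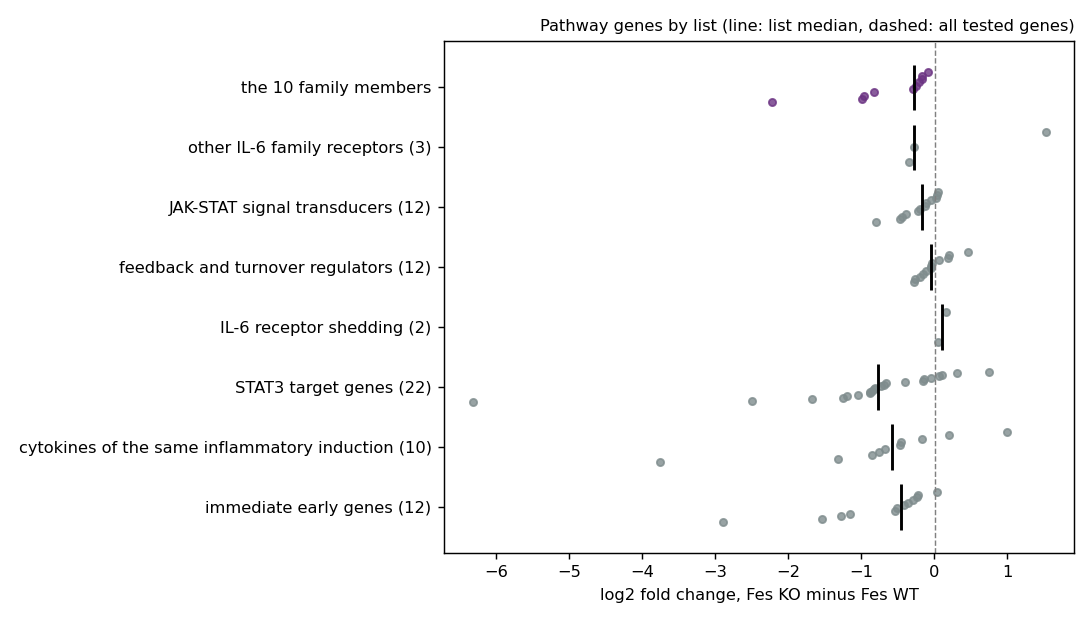
Log2 fold change, Fes KO minus Fes WT, of each tested gene (dot) by list, other ligands left out, with the number tested in brackets, the list median (black line) and the median of all tested genes (dashed, 0.01). The STAT3 target genes have the lowest median, -0.77, with Saa3 at -6.32 farthest left, and the JAK-STAT transducers and feedback regulators sit near 0, at -0.16 and -0.04.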

How the data were processed

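Gene counts of 10 mouse melanomas, 5 Fes KO and 5 Fes WT by the sample titles, were taken from a table of raw read counts per Ensembl gene that the authors deposited. A table of log2 values was deposited too. Each is the log2 of 1 plus the size-factor-scaled count, within 6.6e-11. Tools named in the submitters' processing notes are STAR 2.51b, Subread 1.4.6 and FastQC, with builds GRCm38 and mm10. Settings, strand included, are not stated in any source at hand.

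Counts were tested with edgeR 4.0.16 in R 4.3.3 (TMM, filterByExpr, 2-sided quasi-likelihood test, Benjamini-Hochberg over 14816 genes), on the whole table. The SE is the log2 fold change divided by the square root of F. Levels are CPM with TMM factors, and CPM per kb uses the union of GENCODE M21 exons. Exact permutation tests of single values used all 252 assignments, and relations used 100000 permutations on log2 CPM with a prior count of 2. Alternatives used DESeq2 1.42.0, limma 3.58.1, other normalization factors and filters, the replicate number, covariates and left-out tumours. On simulated counts of 14681 genes, with Fes KO set against Fes WT, the fit recovered 52% of 2-fold and 83% of 4-fold changes. Those changes were set only in genes with a mean above 2 CPM. The recovery therefore does not cover Il6, Osm and Il11, whose means over all tumours were lower.

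The members and lists were chosen with earlier results of these data known. Named genes are the members, up to 3 per list by mean CPM where none changed, the 3 nearest in course to Socs3, Il6, Lif and Osmr, and the changed genes and next neighbours around Osmr and Lifr. An allele that both groups share and a further gene of the ligand list are not reported here.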

Additional observations from a re-analysis of the deposited data

How the results depend on the processing

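None of the 10 family members was called in any of 21 alternatives, which were other normalization factors, filters and tests, the block, covariates and left-out tumours. The lowest adjusted p of a member was 0.0702, for Il6 in limma-voom. Il6 and Osmr lay below 0 in all 21, at -3.40 to -1.59 and -1.27 to -0.74, and so did Socs3, at -1.32 to -0.52. Over the 21 Osm lay at -1.61 to -0.39, Il11 at -0.50 to -0.18, Il6st at -0.36 to -0.011, Il6ra at -0.36 to -0.012 and Lifr at -0.25 to -0.014. With 1 tumour left out Lif lay at -0.70 to 0.23 and Clcf1 at -0.19 to 0.060, above 0 for Lif without Fes WT 3 (0.23) and for Clcf1 without Fes KO 1 (0.022) or Fes WT 5 (0.060). Lif was also above 0 without the keratinocyte-richest and muscle-richest tumours (0.40), and Clcf1 without the 3 Xist-expressing tumours (0.084). The count of changed genes over the whole table was 26, and it was 270 in DESeq2, 115 in limma-voom, 99 with keratinocyte and muscle covariates, 64 without the Xist-expressing tumours and 10 to 54 with 1 tumour left out. With the replicate block 4 genes were called and 0 members. Same-numbered tumours correlated at -0.378 to 0.172, and 0 of 5 Fes KO tumours correlated best with the Fes WT tumour of their own number, so the numbers were not taken as pairs. The 3 relations of Socs3 that passed were also 3 with the deposited log2 values and with Spearman's rho, 1 with values centred on the genotype means, 1 without the keratinocyte-richest and muscle-richest tumours and 0 to 3 with 1 tumour left out. The cause of these shifts was not tested. The low counts of Il6, Osm and Il11 limit what can be seen of the ligands at this depth.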

Other observations

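Mast cells, endothelium and fat are other cells that the tumours could hold, and their markers were not given above. Of 6 mast cell markers 5 lay below 0, as did 47.6% of all tested genes. The median log2 fold change of the 6 was -0.27, with summed levels of 67.4 to 301 CPM in Fes KO and 89.1 to 225 CPM in Fes WT. Of 7 endothelial markers 5 lay above 0, with a median of 0.18 and summed levels of 232 to 519 CPM in Fes KO and 241 to 364 CPM in Fes WT. Of 4 tested adipocyte markers 3 lay above 0, with a median of 0.44 and summed levels of 45.5 to 512 CPM in Fes KO and 58.3 to 461 CPM in Fes WT. None of these genes changed in edgeR, DESeq2 or either limma test, and 0 had an unadjusted p below 0.05 in edgeR.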
